A study of Mus musculus with 15 samples.

Results

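The angiotensin and endothelin genes described here are 8 of the 14091 features in a deposited RNA-seq table: Agt, Agtr1a, Agtr2, Ace, Edn1, Ednra, Ednrb and Ece1. They were chosen by symbol, with earlier results of these data in view, so their values and fold changes are given as a description and without p-values. All 8 symbols were listed in the table, and all 8 passed the filter on low counts that left 13328 features for testing. All groups were cultures of mouse embryonic fibroblasts (MEF), mixed connective tissue cells from embryos, here of the ICR strain. The MΔGΔT group (5 libraries) and the MGT group (5 libraries) were transduced with retrovirus and collected 1 week later, and the MEF group (5 libraries) was the control. The letters stand for the heart transcription factors MEF2C, GATA4 and TBX5, which together push fibroblasts toward a cardiac muscle state. According to its title the study engineered effector domains of MEF2C and GATA4, and the labels do not define the Δ. No label speaks of a virus in the MEF group, so the effect of transduction and that of the factors cannot be told apart. No collection time is given for the MEF group, so an effect of time in culture cannot be told apart from these either. Nothing states that the 5 libraries of a group came from separate cultures, so p-values measure only the spread between these libraries.

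Angiotensin II and endothelin-1 are short peptides that constrict blood vessels and act on fibroblasts and muscle. Angiotensinogen is cut by renin and then by angiotensin-converting enzyme to give angiotensin II, which binds the AT1 and AT2 receptors. Big endothelin-1 is cut by endothelin-converting enzyme, and the product binds the ETA and ETB receptors. AT1 and ETA couple mainly to Gq and G12/13 proteins and drive contraction, growth and matrix production, whereas AT2 is abundant in fetal mesenchyme and is known for opposing AT1 in several settings. Endothelin-1 acting on ETA patterns the jaw in the embryo, and ETB is needed by neural crest cells that form pigment cells and gut neurons.

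Stretches next to transcription starts are shown because they belong to the genes with the largest fall (Agtr2), the opposite changes in the transduced groups (Agt) and the single letter match to a GATA motif (Edn1). They are RefSeq sequences of build GRCm38.p6, 5′ to 3′ on the strand of the gene, with matched motif letters in capitals. For Agtr2 the bases lie at chrX:21484374-21484623 on the + strand, positions -250 to -1 from the RefSeq start. The GENCODE coordinates used below begin the gene at 21484544, inside this stretch. For Agt they lie at chr8:124569707-124569956 on the - strand, also positions -250 to -1, and the capitals mark TATAAA at -30 to -25. For Edn1 they lie at chr13:42301476-42301505 on the + strand, positions 1 to 30, and the capitals mark TTATCT, the reverse complement of AGATAA, at positions 9 to 14.
Agtr2: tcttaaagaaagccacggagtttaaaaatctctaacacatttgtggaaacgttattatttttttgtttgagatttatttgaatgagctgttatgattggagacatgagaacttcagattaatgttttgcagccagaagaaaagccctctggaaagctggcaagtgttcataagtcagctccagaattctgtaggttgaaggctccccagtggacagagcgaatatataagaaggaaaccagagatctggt
Agt: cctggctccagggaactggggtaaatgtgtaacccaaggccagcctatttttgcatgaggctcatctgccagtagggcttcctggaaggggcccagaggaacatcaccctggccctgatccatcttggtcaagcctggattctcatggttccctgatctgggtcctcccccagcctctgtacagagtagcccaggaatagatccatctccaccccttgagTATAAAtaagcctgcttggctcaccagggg
Edn1: gccgggtcTTATCTctggctgcacgttgcc
Promoter windows of 300 bases (250 before and 50 after a start) were found for 7 of the 8 genes, 11 windows in all. Each window was searched on both strands. The letters searched were AGATAA for a GATA motif. They were AGGTGT for a T-box motif. They were CTANNNNTAG for a MEF2 motif, and TATAAA for a TATA box. No match to one motif overlapped a match to another in these windows. Over all 32851 RefSeq windows of this length, 11.2% held the GATA letters, 13.7% the T-box letters, 3.69% the MEF2 letters and 13.6% the TATA letters. Among the 7 genes the GATA letters were found for Edn1, the T-box letters in 2 of the 4 windows of Ece1, which overlap each other, and the TATA letters for Agt and Ace. No window of the 7 genes held the MEF2 letters, and the Agtr2 window held none of the 4 strings of letters. Only these exact letters were searched. Variants were not counted, such as the tatataag near the end of the Agtr2 stretch shown above, which is close to TATAAA. A match is a string of letters and says nothing of binding.

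Library totals ran from 8.21 to 11.1 mega-counts. The label check was met in every library, with Gata4 at 192 ± 3.11 counts per mega-count (CPM) in MΔGΔT, 151 ± 12.6 in MGT and 2.47 ± 0.536 in MEF (SD, n = 5 each). Mef2c stood at 629 ± 23.7, 578 ± 40.1 and 59.6 ± 1.10 CPM in MΔGΔT, MGT and MEF, and Tbx5 at 175 ± 4.48, 123 ± 7.87 and 4.37 ± 0.615 CPM. This check sets the transduced libraries apart from MEF and does not verify which are MΔGΔT and which MGT. Gata4 and Tbx5 were higher in MΔGΔT than in MGT without overlap. The levels of the factors and their engineering cannot be told apart in that comparison. MEF replicate 1 differed more from the other MEF libraries than any other pair within a group did, and the calls of the 8 genes were the same without it. All 12 fibroblast markers were listed, and their summed level was 18979 to 20743 CPM in MΔGΔT, 27001 to 28565 CPM in MGT and 53772 to 62791 CPM in MEF. Cardiomyocyte markers (10 of 12 listed) summed to 9958 to 11339.5 CPM in MΔGΔT, 1034 to 1215 CPM in MGT and 5.46 to 5.87 CPM in MEF, where Myh7 was at 0. Ttn alone averaged 6244 CPM in MΔGΔT and 297 CPM in MGT. All 10 were called higher in both transduced groups against MEF. In MΔGΔT against MGT 9 were called higher and 1, Tnni3, lower (4.97 against 7.64 CPM). In bulk samples of this kind, fewer cells of a type and less RNA per cell cannot be told apart.

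Against MEF, 7 of the 8 genes were lower and 0 higher in MΔGΔT, and 7 were lower and 1 higher in MGT. The fall was deepest for the AT2 receptor gene Agtr2, which was 5.20 log2 units lower in MΔGΔT and 2.56 units lower in MGT. Ece1 was the steadiest of the 8. A gene was called higher or lower at an adjusted p under 0.05 (edgeR quasi-likelihood test, Benjamini-Hochberg over all tested genes), and "rose" and "fell" are used for such genes alone. These counts stand beside a background of 36.1% of all tested genes called lower and 36.2% called higher in MΔGΔT against MEF. In MGT against MEF 30.3% were called lower and 30.9% higher. In MΔGΔT against MGT, 4 of the 8 were lower (background 27.8%), 3 higher (background 30.4%) and 1 not called. The libraries of the compared groups did not overlap for 6 of the 8 genes in MΔGΔT against MEF (58.5% of all tested genes), for 7 in MGT against MEF (45.8%) and for 6 in MΔGΔT against MGT (45.3%). Since the members were chosen on these contrasts, nothing is read from the counts. The median log2 fold change of the 8 genes was -1.40 in MΔGΔT against MEF, -0.74 in MGT against MEF and -0.63 in MΔGΔT against MGT, while the medians over all tested genes were -0.01, 0.00 and 0.01. The 2 comparisons with MEF share their control libraries.

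**Figure D1:**
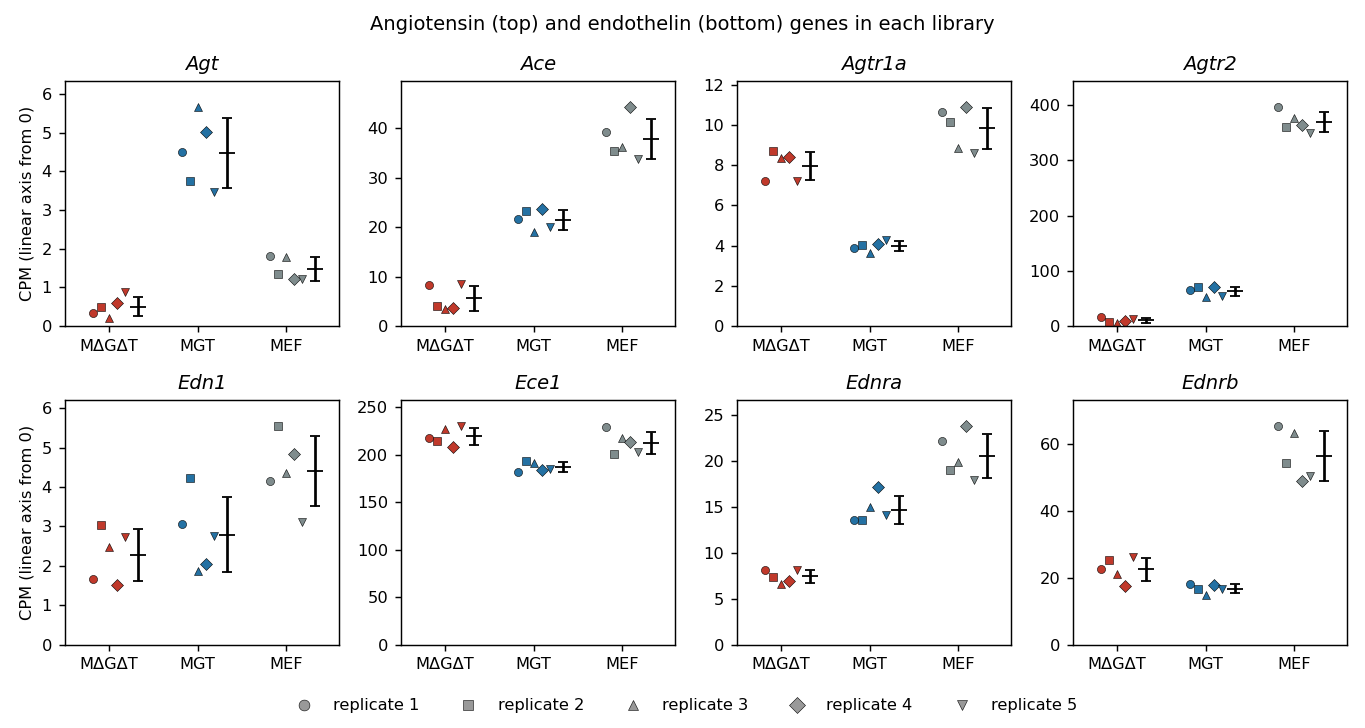
CPM (linear axes from 0) of each of the 8 genes in MΔGΔT, MGT and MEF; symbols mark replicates, and the black bars give the mean ± SD of 5 libraries. Agtr2 lies at 5.46 to 16.3 CPM in MΔGΔT, 52.0 to 70.4 CPM in MGT and 350 to 396 CPM in MEF, whereas the Ece1 groups lie close together.

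**Figure D2:**
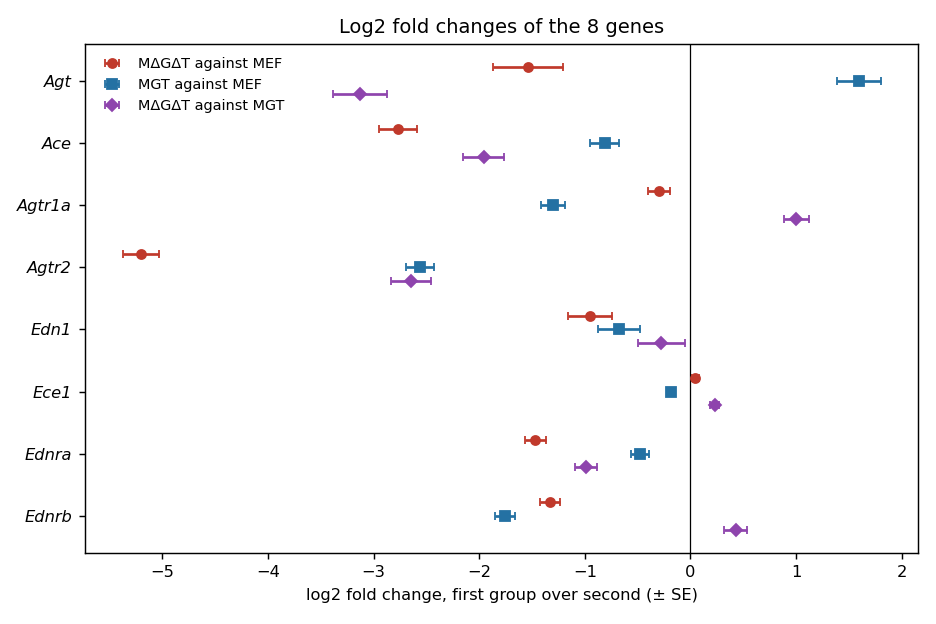
Log2 fold changes (first group over second, ± SE from the fit) of the 8 genes in the 3 comparisons; 0 is no change. Agt lies on opposite sides of 0 in MΔGΔT and MGT against MEF, and Agtr2 reaches -5.20 in MΔGΔT against MEF.

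Among the peptide precursors, Agt encodes angiotensinogen, the substrate of renin (mm10, chr8:124556534-124569706, - strand). Its counts were 3, 5, 2, 6 and 8 in MΔGΔT replicates 1 to 5, 53, 39, 64, 59 and 34 in MGT, and 18, 14, 16, 10 and 11 in MEF. The CPM were 0.333, 0.504, 0.206, 0.607 and 0.872 in MΔGΔT, 4.49, 3.76, 5.66, 5.02 and 3.47 in MGT, and 1.82, 1.34, 1.79, 1.21 and 1.23 in MEF. All MΔGΔT libraries lay below all MEF libraries and all MGT libraries above them, without overlap. Agt thus fell in MΔGΔT against MEF by 1.54 on the log2 scale (SE 0.331) and rose in MGT against MEF by 1.60 (SE 0.204), the only gene of the 8 that moved in opposite directions. MΔGΔT stood 3.13 ± 0.256 log2 units (SE) below MGT. The MΔGΔT values rest on 24 reads in all, so counting error is a large part of their spread.

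Edn1 encodes the precursor of endothelin-1 (chr13:42301476-42307990, + strand). Its CPM were 1.67, 3.03, 2.47, 1.52 and 2.72 in MΔGΔT, 3.05, 4.24, 1.86, 2.04 and 2.75 in MGT, and 4.15, 5.56, 4.37, 4.83 and 3.13 in MEF. The MΔGΔT libraries all lay below MEF, if barely, while MGT overlapped both groups. The log2 fold changes were -0.95 ± 0.212 (SE) in MΔGΔT against MEF and -0.67 ± 0.198 in MGT against MEF, both called, and -0.27 ± 0.225 in MΔGΔT against MGT, which was not called. Edn1 shares 35 exon bases with the antisense gene Gm47118, and whether the counting used strand is not given in the sources used here.

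Ace encodes angiotensin-converting enzyme (chr11:105967945-105989964, + strand), a membrane peptidase of the vessel lining that is also found in fibroblasts. Its CPM were 8.22, 4.04, 3.50, 3.74 and 8.50 in MΔGΔT, 21.5, 23.2, 18.9, 23.6 and 19.99 in MGT, and 39.2, 35.5, 36.2, 44.2 and 33.8 in MEF. The 3 groups formed separate steps without overlap, and within MΔGΔT replicates 1 and 5 stood above the rest. Ace fell by 2.77 on the log2 scale (SE 0.181) in MΔGΔT against MEF and by 0.81 (SE 0.138) in MGT against MEF, and MΔGΔT was lower than MGT by 1.96 (SE 0.194). Ace shares 295 exon bases with the antisense gene Gm11651, with which its reads could be mixed if strand was not used.

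Ece1 encodes endothelin-converting enzyme 1 (chr4:137862237-137965229, + strand). Its CPM were 218, 214, 227, 208 and 231 in MΔGΔT, 182, 194, 191, 184 and 185 in MGT, and 230, 201, 218, 213 and 203 in MEF. MΔGΔT and MEF overlapped, and every MGT library lay below every library of the other groups. The log2 fold change was 0.04 ± 0.0391 (SE) in MΔGΔT against MEF, not called, and -0.19 ± 0.0391 in MGT against MEF. In MΔGΔT against MGT it was 0.23 ± 0.0390, but it was 0.06 with plain library totals instead of composition factors and -0.03 with the totals implied by the deposited RPKM, so the direction of this small difference depends on the scaling.

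Endothelial cells are rich in Ace, Edn1 and Ece1. Of 12 endothelial markers, 7 were listed, none of them at 0 in a whole group, and Pecam1, Tie1, Cldn5, Robo4 and Esam were not among the features analysed here. Their summed level was 24.1 to 32.6 CPM in MΔGΔT, 38.2 to 47.0 CPM in MGT and 57.3 to 59.5 CPM in MEF. Of the 6 tested, 1 rose and 4 fell in MΔGΔT against MEF, and 1 rose and 3 fell in MGT against MEF. Kdr, a receptor for vascular growth factor, was the one that rose in both, averaging 19.5 CPM in MΔGΔT, 24.3 CPM in MGT and 10.52 CPM in MEF. Cdh5, the cadherin that defines the lineage, was too low to test, at 0.0222 CPM in MΔGΔT, 0.159 CPM in MGT and 1.45 CPM in MEF. The part of endothelial cells in the falls of Ace and Edn1 was not tested.

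Of the receptors, Agtr2 (chrX:21484544-21489164, + strand) encodes AT2. Its counts were 147, 79, 53, 83 and 115 in MΔGΔT, 780, 730, 588, 822 and 538 in MGT, and 3920, 3771, 3360, 3018 and 3135 in MEF. In CPM these were 16.3, 7.97, 5.46, 8.39 and 12.5 in MΔGΔT, 66.1, 70.4, 52.0, 69.9 and 54.9 in MGT, and 396, 362, 376, 365 and 350 in MEF. The groups were far apart: the highest MΔGΔT library lay below the lowest MGT library, and the highest MGT library below the lowest MEF library. Agtr2 fell by 5.20 on the log2 scale (SE 0.172) in MΔGΔT against MEF and by 2.56 (SE 0.131) in MGT against MEF, and was lower in MΔGΔT than in MGT by 2.64 (SE 0.192). Leaving out each library in turn kept the first of these between -5.44 and -5.04. The summed fibroblast markers given above had the same order of groups, but not each marker did: 11 of 12 fell and Thy1 rose in MΔGΔT against MEF, all 12 fell in MGT against MEF, and Thy1 and Postn were higher in MΔGΔT than in MGT. Their part in the fall of Agtr2 was not tested.

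Agtr1a (chr13:30336441-30382867, + strand) encodes the main rodent AT1 receptor. Its CPM were 7.22, 8.68, 8.34, 8.39 and 7.19 in MΔGΔT, 3.90, 4.05, 3.63, 4.08 and 4.28 in MGT, and 10.6, 10.2, 8.85, 10.9 and 8.59 in MEF. MGT lay below both other groups without overlap, and the highest MΔGΔT value lay above the lowest MEF value. Against MEF its log2 fold change was -0.30 (SE 0.104) in MΔGΔT and -1.30 (SE 0.116) in MGT, both called, and MΔGΔT was higher than MGT by 1.00 (SE 0.120). Agtr1b, a near-identical rodent copy, was not among the features analysed here, and how reads shared by the pair were assigned is unknown.

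Ednra (chr8:77663031-77724464, - strand) encodes ETA. Its CPM were 8.11, 7.36, 6.59, 6.88 and 8.06 in MΔGΔT, 13.6, 13.5, 14.9, 17.2 and 14.1 in MGT, and 22.1, 19.0, 19.8, 23.8 and 17.9 in MEF. The groups again formed 3 steps without overlap. Ednra fell by 1.47 on the log2 scale (SE 0.0993) in MΔGΔT against MEF and by 0.48 (SE 0.0852) in MGT against MEF, and MΔGΔT was lower than MGT by 0.99 (SE 0.102). It shares 91 exon bases with 4933431K23Rik on the opposite strand.

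Ednrb (chr14:103814625-103844402, - strand) encodes ETB. Its CPM were 22.5, 25.4, 21.2, 17.6 and 26.2 in MΔGΔT, 18.1, 16.5, 14.8, 17.8 and 16.5 in MGT, and 65.5, 54.4, 63.3, 48.9 and 50.5 in MEF. Both transduced groups lay below MEF without overlap, and they overlapped with each other. Ednrb fell by 1.33 on the log2 scale (SE 0.0957) in MΔGΔT against MEF and by 1.76 (SE 0.0979) in MGT against MEF. MΔGΔT was higher than MGT by 0.43 (SE 0.112), a difference that was 0.17 and no longer called with RPKM-implied totals. Of 12 markers of neural crest, glia and melanocytes, 9 were listed, none at 0 in a whole group, and their summed level was 39.99 to 43.9 CPM in MΔGΔT, 39.6 to 48.4 CPM in MGT and 100 to 117 CPM in MEF. Of the 7 tested, 6 fell in each transduced group against MEF, Sox10 among them. Mitf, another of these, alone averaged 24.1 CPM in MΔGΔT, 27.9 CPM in MGT and 47.7 CPM in MEF. Pmel and Dct were not among those that fell. Pmel averaged 1.70, 1.46 and 1.23 CPM in the same order, and Dct 0.190, 0.362 and 0.0607 CPM. The part of these markers in the fall of Ednrb was not tested.

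The receptors changed by different amounts, so their proportions differed between groups. Levels of different genes are compared per length, by the deposited RPKM (reads per kilobase and mega-read). The ratio of Agtr2 to Agtr1a RPKM within a library was 0.976 ± 0.496 in MΔGΔT (0.484 to 1.68), 11.7 ± 1.51 in MGT (9.50 to 12.9) and 27.9 ± 2.58 in MEF (24.9 to 31.2; SD, n = 5 each). Agtr2 was therefore far above Agtr1a in every MGT and MEF library, and lay above it in MΔGΔT replicates 1 and 5 and below it in MΔGΔT replicates 2 to 4. The RPKM ratio of Ednrb to Ednra was 1.31 ± 0.142 in MΔGΔT (1.13 to 1.52), 0.483 ± 0.0421 in MGT (0.419 to 0.535) and 1.24 ± 0.175 in MEF (1.06 to 1.47). Because the RPKM of Ednra followed its counts unevenly across libraries, the ratio was also taken from read counts, which are not per length and do not say which gene is higher. It was then 3.05 ± 0.368 in MΔGΔT, 1.15 ± 0.142 in MGT and 2.78 ± 0.429 in MEF. On both scales MGT lay below the other groups without overlap, and MΔGΔT and MEF overlapped. These ratios use the same counts as the fold changes and were not tested. Summed over the 4 receptor genes, the RPKM were 8.85 ± 1.24 in MΔGΔT, 21.7 ± 2.41 in MGT and 90.7 ± 5.99 in MEF, of which Agtr2 made up 18.5%, 56.5% and 79.1%.

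**Figure D3:**
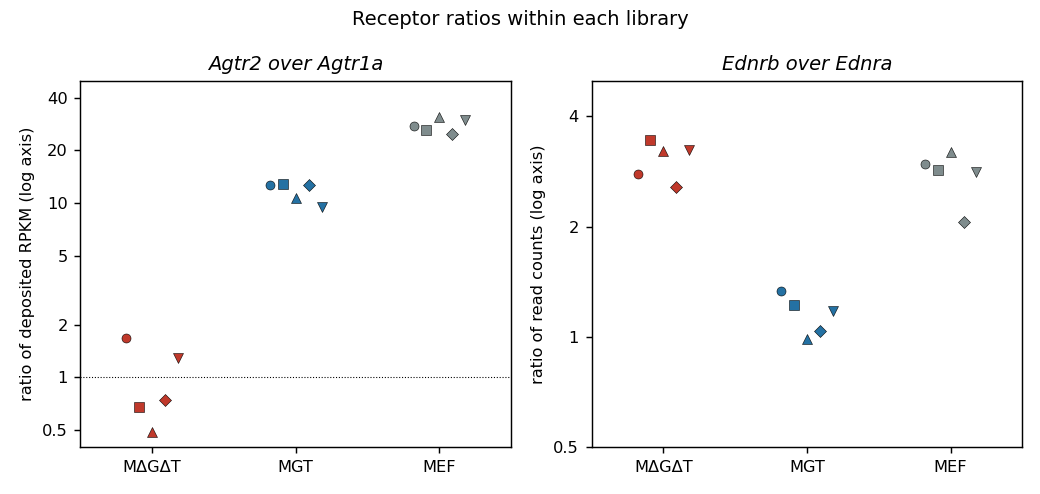
Ratio of Agtr2 to Agtr1a (deposited RPKM, left) and of Ednrb to Ednra (read counts, right) in each library of MΔGΔT, MGT and MEF, on log axes; symbols mark replicates 1 to 5 in order from left to right and the dotted line on the left is a ratio of 1; the count ratio on the right is not per length. The AT2 to AT1 ratio falls in 3 separate ranges, 0.484 to 1.68, 9.50 to 12.9 and 24.9 to 31.2, and the ETB to ETA ratio is lowest in MGT.

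By mean RPKM, the order in MΔGΔT was Ece1 (22.7 ± 1.73), Ednrb (3.07 ± 0.559), Ednra (2.34 ± 0.322), Agtr1a (1.77 ± 0.151), Agtr2 (1.67 ± 0.709), Ace (0.688 ± 0.325), Edn1 (0.536 ± 0.167) and Agt (0.146 ± 0.0777). Neighbours in this order had overlapping libraries, Agtr1a and Agtr2 among them, except for gaps below Ece1, below Ednra and above Agt. In MGT the order was Ece1 (23.1 ± 1.06), Agtr2 (12.3 ± 1.97), Ednra (5.62 ± 0.274), Ace (3.22 ± 0.462), Ednrb (2.71 ± 0.241), Agt (1.55 ± 0.289), Agtr1a (1.06 ± 0.0858) and Edn1 (0.780 ± 0.285), where Ace overlapped Ednrb and Agtr1a overlapped Edn1. In MEF it was Agtr2 (71.8 ± 4.63), Ece1 (25.9 ± 1.87), Ednrb (9.04 ± 1.24), Ednra (7.32 ± 0.385), Ace (5.54 ± 0.655), Agtr1a (2.59 ± 0.310), Edn1 (1.22 ± 0.269) and Agt (0.504 ± 0.108), and among neighbours Ednrb overlapped Ednra. Agtr2, the most abundant of the 8 per length in MEF, was the second in MGT and the fifth in MΔGΔT. The place of Ednra is uncertain: relative to Ece1, its counts per RPKM and per annotated exon base were 0.321, against 0.831 to 1.10 for the other genes, and the relation of its RPKM to its counts varied by a factor of 1.35 across libraries.

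Of other renin-angiotensin genes, 14 of 22 named were listed and 13 could be tested. Renin itself (Ren1), Mas1 and the chymase gene Cma1 were not among the features analysed here. In MΔGΔT against MEF 4 rose and 7 fell, in MGT against MEF 4 rose and 8 fell, and in MΔGΔT against MGT 7 rose and 3 fell. The last split depends on the scaling: it was 5 and 5 with upper-quartile factors, 5 and 6 with library totals, and 3 and 7 with RPKM-implied totals. The list's median log2 fold change was -0.21, -0.23 and 0.09 in the same order of comparisons.

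The largest changes were in membrane peptidases that cut angiotensins. Enpep, aminopeptidase A, which turns angiotensin II into angiotensin III, was at 69.6 ± 3.69 CPM in MΔGΔT, 16.1 ± 1.92 CPM in MGT and 6.95 ± 0.874 CPM in MEF (SD, n = 5 each). It rose by 3.32 ± 0.0806 log2 units (SE) in MΔGΔT against MEF (adjusted p = 3.78e-31) and by 1.21 ± 0.0989 in MGT against MEF (adjusted p = 8.62e-14). Anpep, aminopeptidase N, which acts on angiotensin III, was at 19.8 ± 2.27 CPM in MΔGΔT, 39.7 ± 4.84 CPM in MGT and 247 ± 15.7 CPM in MEF. It fell in both, with log2 fold changes of -3.64 ± 0.0751 in MΔGΔT (adjusted p = 5.17e-22) and -2.63 ± 0.0665 in MGT (adjusted p = 4.72e-20). Mme, neprilysin, which degrades angiotensins and endothelin-1, was at 14.1 ± 1.93 CPM in MΔGΔT, 54.4 ± 4.61 CPM in MGT and 112 ± 5.46 CPM in MEF. It fell by 2.99 ± 0.0680 in MΔGΔT (adjusted p = 2.89e-31) and by 1.05 ± 0.0542 in MGT (adjusted p = 1.84e-19). For each of these 3 genes the libraries of the groups did not overlap, and MΔGΔT also differed from MGT, with log2 fold changes of 2.11 for Enpep, -1.004 for Anpep and -1.95 for Mme.

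The remaining genes of this list changed less. Lnpep (the angiotensin IV binding aminopeptidase) rose by 0.78 in MΔGΔT and 0.36 in MGT against MEF, Mtus1 (which encodes a protein that binds AT2) by 0.62 and 0.32, and Prep, a peptidase that can form angiotensin 1-7, by 0.54 and 0.17. Nln and Prcp, which cut angiotensins, fell by 0.64 and 0.61 in MΔGΔT and by 0.55 and 0.49 in MGT. Agtrap, which encodes a protein that binds AT1, fell by 0.35 in MGT and had a log2 fold change of -0.02 in MΔGΔT (adjusted p = 0.795). Atp6ap2, the prorenin receptor, fell by 0.23 in MGT and had a log2 fold change of -0.08 in MΔGΔT (adjusted p = 0.117). In MΔGΔT both were called lower with RPKM-implied totals, and Atp6ap2 also with library totals, with upper-quartile factors and without MEF replicate 1. Rnpep fell by 0.25 in MΔGΔT and 0.22 in MGT, Ctsa by 0.21 and 0.30, and the call of Rnpep in MGT was lost with library totals (adjusted p = 0.0722). Thop1 fell by 0.23 in MΔGΔT, and its log2 fold change was 0.02 in MGT (adjusted p = 0.793).

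Of 7 other endothelin genes, 5 were listed and 4 tested, and 2 rose and 2 fell in each transduced group against MEF. In MGT against MEF the split was 2 and 1 with library totals or RPKM-implied totals. Furin, a protease that trims proendothelin-1, was at 417 ± 11.98 CPM in MΔGΔT, 250 ± 3.53 CPM in MGT and 215 ± 7.68 CPM in MEF, and rose by 0.95 ± 0.0343 log2 units (SE) in MΔGΔT (adjusted p = 2.31e-25) and by 0.22 ± 0.0344 in MGT (adjusted p = 7.68e-07). Pcsk7, a related protease, rose by 0.55 in MΔGΔT and 0.27 in MGT. Ecel1, a relative of the converting enzyme, had 3, 1, 0, 0 and 1 counts in MΔGΔT, 2, 2, 4, 4 and 2 in MGT, and 29, 26, 22, 33 and 23 in MEF. Its log2 fold change in MΔGΔT against MEF was -4.62 ± 0.403 (adjusted p = 3.89e-13) and -5.49 without MΔGΔT replicate 1. Ece2 fell by 0.23 in MΔGΔT (adjusted p = 0.0200) and 0.21 in MGT (adjusted p = 0.0320), and the call in MGT was lost with DESeq2 (adjusted p = 0.0852), with library totals or RPKM-implied totals, and on leaving out any of 5 single libraries. The endothelin-3 gene Edn3 was too low to test, at 0.104 ± 0.102 CPM in MΔGΔT, 0.0517 ± 0.0472 CPM in MGT and 1.30 ± 0.369 CPM in MEF. In MΔGΔT against MGT 2 of the 4 rose (Furin and Pcsk7) and 0 fell, and the split was 1 and 1 with RPKM-implied totals. Ecel1 had a log2 fold change of -1.18 there (adjusted p = 0.133), and without MΔGΔT replicate 1 it was -2.05 and called (adjusted p = 0.0286).

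**Figure D4:**
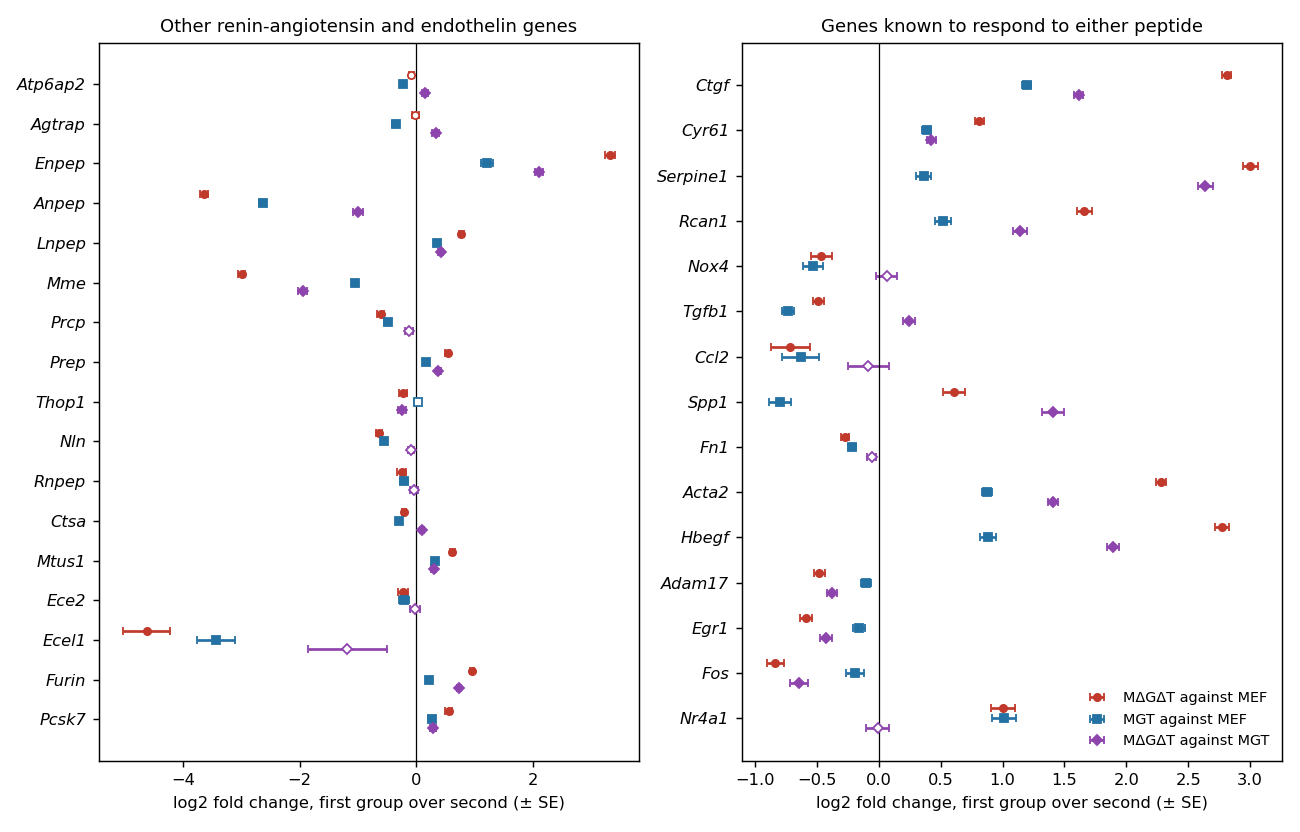
Log2 fold changes (first group over second, ± SE) of the tested other renin-angiotensin and endothelin genes (left) and of tested genes known to respond to either peptide (right) in the 3 comparisons; filled symbols passed an adjusted p of 0.05 and open ones did not. Enpep lies far to the right and Anpep, Mme and Ecel1 far to the left, while most other genes on the left panel lie within about 1 log2 unit of 0.

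Downstream of the receptors, all 32 genes of the G protein relay list were tested: 13 rose and 16 fell in MΔGΔT against MEF, 9 rose and 14 fell in MGT against MEF, and 12 rose and 7 fell in MΔGΔT against MGT. With RPKM-implied totals the first split was 7 and 18, with library totals the second was 13 and 13, and the third was 10 and 10 with upper-quartile factors, 9 and 17 with library totals and 8 and 18 with RPKM-implied totals. The list's medians were -0.03, -0.12 and 0.05. Arhgef12, a RhoA activator below G12/13, rose by 1.59 in MΔGΔT and 0.97 in MGT, and the receptor kinase gene Grk5 by 1.58 and 0.67. The arrestin genes Arrb1 and Arrb2, whose products silence and internalise the AT1 receptor, fell in both groups, with log2 fold changes of -2.32 and -2.63 in MΔGΔT and -1.65 and -2.23 in MGT. Leukocytes are rich in both, and of 13 macrophage markers the 12 listed were all tested and all fell in both groups against MEF. Their summed level was 222 to 329 CPM in MΔGΔT, 178 to 326 CPM in MGT and 2368 to 3137 CPM in MEF, and their part in the arrestin values was not tested. Rgs2, which shortens Gq signalling, fell by 0.97 in MΔGΔT and rose by 0.33 in MGT, whereas Rgs4 fell by 0.66 in MΔGΔT and by 1.86 in MGT.

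Of 17 genes known to respond to angiotensin II or endothelin-1, 15 were tested: 8 rose and 7 fell in MΔGΔT against MEF, 7 rose and 8 fell in MGT against MEF, and 8 rose and 3 fell in MΔGΔT against MGT. The median log2 fold change of these response genes was 0.61 in MΔGΔT against MEF, -0.10 in MGT against MEF and 0.24 in MΔGΔT against MGT. The second split was 7 and 5 with library totals, and the third 7 and 5 with RPKM-implied totals. Ctgf, a matrix growth factor, averaged 1194 CPM in MΔGΔT, 390 CPM in MGT and 170 CPM in MEF, a rise of 2.81 ± 0.0384 log2 units (SE) in MΔGΔT (adjusted p = 1.30e-39) and 1.196 ± 0.0374 in MGT (adjusted p = 4.52e-27). The growth factor gene Hbegf rose by 2.77 in MΔGΔT and 0.88 in MGT, the smooth muscle actin gene Acta2 by 2.28 and 0.87, and the calcineurin target Rcan1 by 1.66 and 0.52. Tgfb1, a fibrosis cytokine, fell by 0.49 in MΔGΔT and by 0.73 in MGT. The smooth muscle and pericyte markers, 12 of 12 listed and Acta2 among them, summed to 5982 to 6384 CPM in MΔGΔT, 2465 to 2678 CPM in MGT and 1867 to 1978 CPM in MEF. Without Acta2 the other 11 summed to 2348 to 2491 CPM in MΔGΔT, 1115 to 1182 CPM in MGT and 1114 to 1149 CPM in MEF, so MGT and MEF overlapped. Of the 12, 9 rose and 3 fell in MΔGΔT against MEF, and 8 rose and 3 fell in MGT against MEF, with Pdgfrb, Notch3 and Kcnj8 the ones that fell in both. The part of such cells in the values of the response genes was not tested.

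Of 7 jaw factors that depend on endothelin-1 in the embryo, 3 could be tested, all at low levels. Dlx5 averaged 1.32 CPM in MΔGΔT, 0.872 CPM in MGT and 0.329 CPM in MEF and rose in both groups against MEF. Gsc averaged 0.461 CPM in MΔGΔT, 0.576 CPM in MGT and 1.29 CPM in MEF and fell in both. Hand2 averaged 1.64 CPM in MΔGΔT, 2.22 CPM in MGT and 2.39 CPM in MEF, and its call as lower in MΔGΔT (adjusted p = 0.0472) was lost with DESeq2 (adjusted p = 0.0706) and on leaving out any of 8 single libraries.

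Over the 5 lists together, 67 of the 85 named genes were tested. In MΔGΔT against MEF 28 rose and 34 fell, against 22 and 38 with RPKM-implied totals. In MGT against MEF 23 rose and 33 fell, against 27 and 27 with library totals. In MΔGΔT against MGT 29 rose and 13 fell, a split that was 25 and 19 with upper-quartile factors, 22 and 28 with library totals and 19 and 32 with RPKM-implied totals. In the 3 comparisons 62, 56 and 42 of the 67 were called, beside 72.3%, 61.2% and 58.2% of all tested genes, and the lists were not tested against other genes. The all-gene splits moved with the scaling too. In MΔGΔT against MEF 4819 rose and 4818 fell, against 2925 and 7184 with RPKM-implied totals. In MGT against MEF 4120 rose and 4040 fell, against 5181 and 3276 with library totals. In MΔGΔT against MGT 4056 rose and 3706 fell, against 2436 and 6200 with library totals and 1869 and 7289 with RPKM-implied totals.

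The genes whose profiles lay nearest to each member were taken by the root mean square difference of log2 CPM, centred on the gene's own mean, over the 15 libraries and 12015 genes. Agtr2 was nearest to Cd34, a surface marker of mesenchymal and vascular progenitors (0.249), and Adh1 (0.342). Agt was nearest to Sv2b (0.397) and Slc43a3 (0.417), Ace to the matrix gene Fbln1 (0.261) and the imprinted RNA H19 (0.262), and Edn1 to Pygl (0.281) and En1 (0.282). Agtr1a was nearest to the protease gene Adamts1 (0.138) and Ror1 (0.148), Ednra to Fam129a (0.127) and the TGF-β receptor gene Tgfbr2 (0.136), Ednrb to Pid1 (0.171) and the collagen receptor gene Itga11 (0.173), and Ece1 to Sel1l (0.0493) and Ndel1 (0.0497). Cd34 averaged 1.18 CPM in MΔGΔT, 7.70 CPM in MGT and 43.1 CPM in MEF, the same 3 steps as Agtr2. These are likenesses over 3 group levels.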

How the data were processed

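RNA-seq libraries were made from rRNA-depleted total RNA by directional synthesis, per the labels' protocols. The authors deposited 1 table with read counts and RPKM values per gene and library, per the file headers. Per the submitters' processing notes the reads were placed on mm10. Which aligner and counter were used, and whether counting was stranded, is not given in the sources used here. Another 30 columns of normalized or transformed values were not used. In 21 features (0.258% of counts) the symbol had become a date; they were kept in library sizes and tests but not named.

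Members and gene lists were chosen with earlier results of these data known. Counts were analysed with edgeR 4.0.16 (R 4.3.3): filterByExpr by group, TMM factors and a robust quasi-likelihood fit of all 15 libraries with group as the only term (12 residual degrees of freedom, biological coefficient of variation 4.86%). Adjusted p-values are Benjamini-Hochberg over 13328 genes, called at 0.05. CPM use TMM-adjusted library sizes, whereas the RPKM are as the authors deposited them and carry no such factors. Named pathway genes are up to 4 with the smallest adjusted p per list and comparison, with all listed genes of the other renin-angiotensin and endothelin lists. Some items of these lists are not reported here by name. Profile neighbours needed a mean log2 CPM above 1. Coordinates and exon bases come from GENCODE M21 (mm10), matched by symbol. Alternatives were other scalings, no filter, DESeq2 1.42.0, fits of the compared groups alone, a replicate block and leaving out each library.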

Additional observations from a re-analysis of the deposited data

Results flagged for a closer look

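In 8 of 129 groups of 5 libraries, over 43 genes, 1 library lay far from the others relative to the range of its group (gap over range above 0.71). Chance flags about 1 group in 20, and none of the 8 angiotensin and endothelin genes was among them. In MΔGΔT, Atp6ap2 was high in replicate 3 at 141 CPM (others 129 to 132), Arrb1 high in replicate 1 at 13.8 CPM (others 10.4 to 11.2), Mtus1 low in replicate 5 at 171 CPM (others 183 to 188) and Furin low in replicate 5 at 396 CPM (others 419 to 426). In MGT, Tbx5 was high in replicate 3 at 137 CPM (others 117 to 122). In MEF, Prep was high in replicate 1 at 98.8 CPM (others 86.9 to 89.2), Rgs2 high in replicate 2 at 79.8 CPM (others 66.0 to 69.8) and Tgfb1 high in replicate 4 at 92.7 CPM (others 80.1 to 83.4).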

How the results depend on the processing

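The calls of the 8 genes were the same in each alternative except 2 scalings without composition factors. With RPKM-implied totals 8 were lower in MΔGΔT against MEF (Ece1 added), and 1 was higher and 5 lower in MΔGΔT against MGT (Edn1 lower, Ednrb and Ece1 not called). With library totals 2 were higher in MΔGΔT against MGT (Ece1 not called). These scalings moved the median log2 fold change of all genes to -0.10 (library totals) and -0.24 (RPKM-implied totals) in MΔGΔT against MEF, and to -0.16 and -0.25 in MΔGΔT against MGT. Genes called higher in MΔGΔT against MEF numbered 2925 with RPKM-implied totals. In MΔGΔT against MGT, 2436 were higher and 6200 lower with library totals, and 1869 and 7289 with RPKM-implied totals. Of the pathway genes, 28 were then lower with library totals, and 19 were higher and 32 lower with RPKM-implied totals. Log2 fold changes that turned round in MΔGΔT against MGT were those of Ece1 (-0.0263), Atp6ap2 (-0.105), Ctsa (-0.162) and Tgfb1 (-0.0113) with RPKM-implied totals, and of Atp6ap2 (-0.0201) and Ctsa (-0.0792) with library totals. The scaling itself sets these shifts, and which totals are nearer to the RNA of the cells was not tested. Among named pathway genes, 31 calls were lost, 20 gained and 1 turned round (Ctsa, above) over all alternatives. Deviations of same-numbered libraries correlated at -0.18 to 0.12 over all comparisons. In MΔGΔT against MGT these correlations were 0.111, 0.072, 0.119, -0.013 and 0.097 for replicates 1 to 5. Libraries of different number correlated at -0.169 to 0.131 in that comparison. Whether same-numbered libraries share a culture or batch was not tested. With a replicate block, 4794 genes were higher and 4799 lower in MΔGΔT against MEF, and 7 of the 8 genes were still lower. Depth limits Agt and Edn1 most.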

Other observations

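Within MΔGΔT, Ace and Agtr2 varied more between libraries than nearly all genes with a mean above 3 CPM. The SD of log2 CPM over the 5 libraries was 0.614 for Ace and 0.6001 for Agtr2, against a median of 0.0864 over 11289 genes with a mean above 3 CPM, and 6 and 7 genes had a larger SD. Most of these genes are more abundant than Ace and Agtr2, and counting error is larger at low levels. Mean counts in MΔGΔT were 52.6 for Ace, 70.4 for Ednra, 76.2 for Agtr1a and 95.4 for Agtr2. The SD of log2 CPM there was 0.130 for Ednra and 0.126 for Agtr1a. Genes of the same level outside the 8 were not compared, and the part of counting error in the spread was not tested. Ace and Agtr2 were both highest in replicates 1 and 5. Ace stood at 8.22 and 8.50 CPM there and at 3.50 to 4.04 CPM in the other libraries. Agtr2 stood at 16.3 and 12.5 CPM there and at 5.46 to 8.39 CPM in the others. Ednra was also highest in MΔGΔT replicates 1 and 5, by less, at 8.11 and 8.06 CPM against 6.59 to 7.36 CPM in the others. Agt, Agtr1a, Edn1, Ednrb and Ece1 were not highest in that pair of libraries. In MGT the SD was 0.137 for Ace and 0.204 for Agtr2 (median 0.0883), and in MEF it was 0.151 and 0.0680 (median 0.112). This was seen after looking at the values, and what the libraries with higher levels share was not tested.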
